A study of Mus musculus with 11 samples.

Results

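The 11 main olfactory epithelium (MOE) libraries of this mouse series were divided by the level of Acta1, the gene of skeletal muscle alpha actin, and described for the muscle RNA they held and for the genes that accompanied it. The samples over the threshold were chosen by a measured value: Acta1 above 100 CPM (counts scaled to a fixed library total with edgeR's TMM factors). This rule placed 4 of the 11 libraries over the threshold, heterozygous 2 and 4 (het-2 and het-4) and homozygous 2 and 3 (homo-2 and homo-3). The 7 libraries under it were wild type 1 to 3 (WT-1 to WT-3), het-1, het-3, homo-1 and homo-4. Every comparison of the libraries over with the libraries under the threshold is therefore a description and carries no test.

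RNA was taken from the whole MOE of C57BL/6 mice at P1-P2 by the labels and sequenced from polyA-selected libraries. The genotypes were wild type (3 libraries), heterozygous (4) and homozygous (4) for a deletion of the Taar2 to Taar9 gene cluster, which encodes olfactory trace amine-associated receptors. No agent was given and no allele other than the deletion is named. The labels do not say whether a library came from 1 animal or from pooled animals, so p-values measure the spread between these libraries, which may be technical in part. The study's reporting summary describes older mice of both sexes on a mixed background, which differs from the labels and limits what can be said of age.

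The libraries held 9239866 to 14632525 counts over 24421 listed genes, of which 16574 passed a filter on low counts. The summed level of the deleted Taar genes was 6.98 to 9.61 CPM in wild type, 3.32 to 6.98 CPM in heterozygous and 0.0841 to 0.258 CPM in homozygous libraries, with homozygous libraries far below the rest and overlap at the edges of wild type and heterozygous. The olfactory marker Omp was at 346 to 508 CPM over and 349 to 737 CPM under the threshold, so all 11 libraries held olfactory neurons. The first principal component, with 41.6% of the variance, split the libraries into a set of 6 (WT-1, WT-2, het-3, het-4, homo-1 and homo-2) and a set of 5 (WT-3, het-1, het-2, homo-3 and homo-4), and each set held 2 of the libraries over the threshold. In homo-2, 25.8% of all counts came from Rn45s, the ribosomal RNA precursor, against 0.0848 to 0.786% in the other libraries.

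Skeletal muscle fibres contract through sarcomeres, in which thick filaments of myosin slide along thin filaments of actin, tropomyosin and troponin, and titin spans from the Z disc toward the middle of the sarcomere. Around birth, fibres exchange early isoforms of these proteins for later ones: the embryonic and perinatal myosin heavy chains Myh3 and Myh8 give way to the adult fast chains Myh1, Myh2 and Myh4 and the slow chain Myh7, and the cardiac actin Actc1 gives way to Acta1. The olfactory epithelium itself is made of sensory neurons, sustentacular cells and basal cells on a connective tissue layer, and contains no striated muscle. In bulk RNA, fewer muscle cells and less RNA per muscle cell cannot be told apart.

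Acta1 (chromosome 8, 123891769 to 123894751, minus strand, GRCm38) stood at 155 CPM in het-2, 446 CPM in het-4, 129 CPM in homo-2 and 269.7 CPM in homo-3. Under the threshold it was 1.02, 13.0 and 5.01 CPM in WT-1 to WT-3, 6.05 and 5.78 CPM in het-1 and het-3, and 34.2 and 5.77 CPM in homo-1 and homo-4. The library just inside the rule was homo-2 and the library just outside was homo-1, so muscle RNA was graded rather than present or absent. Scaled to the plain library total, homo-2 held 97.2 CPM of Acta1, under the threshold, in a total that includes the Rn45s counts.

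Myh8 (chromosome 11, 67277124 to 67308634, plus strand), the perinatal myosin heavy chain, was at 136, 530.2, 84.5 and 169 CPM in het-2, het-4, homo-2 and homo-3 and at 0.371 to 20.2 CPM (median 1.90) in the 7 other libraries. Ttn (chromosome 2, 76703980 to 76982547, minus strand), which encodes titin, was at 41.6, 95.7, 30.4 and 42.6 CPM in the same 4 libraries and at 1.39 to 7.57 CPM (median 3.06) in the rest. For all 3 genes the groups did not overlap, het-4 was the highest library and homo-1 was the highest of those under the threshold. WT-2 came next to homo-1 for each of them, with 18.1 CPM of Myh8 and 4.89 CPM of Ttn, while WT-1 was lowest for each.

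**Figure D1:**
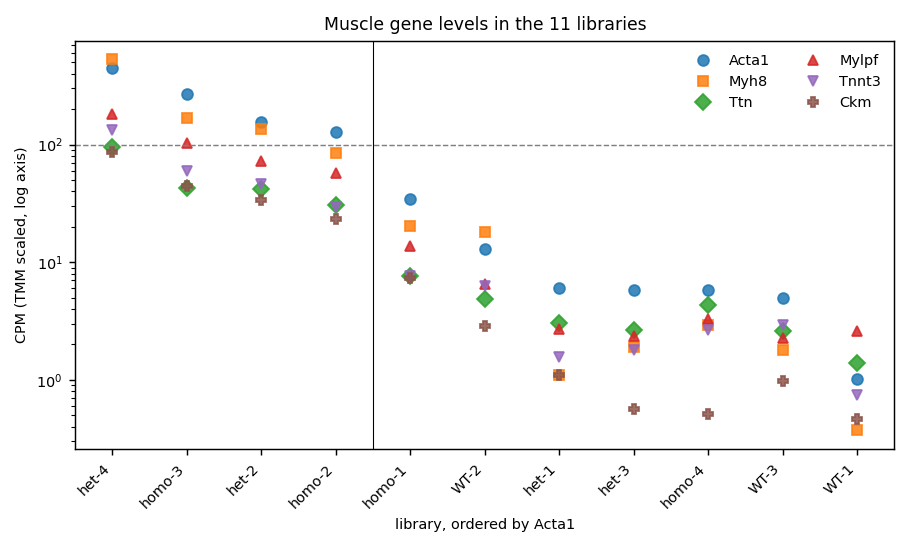
Levels of 6 muscle genes (Acta1, Myh8, Ttn, Mylpf, Tnnt3 and Ckm) in CPM on a log axis in each of the 11 libraries, ordered by Acta1; the dashed line is the 100 CPM threshold and the vertical line separates the 4 libraries over it from the 7 under it. Acta1 falls from 446 CPM in het-4 to 1.02 CPM in WT-1, with homo-1 and WT-2 between the 4 libraries and the remaining 5.

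Because many of these genes moved together, the 250 bases before the transcription start were read for 6 of them from RefSeq (GRCm38.p6), 5 of which carry the E-box CAGCTG, the form bound by myogenic factors such as Myod1 and Myog. Acta1 chose the libraries, Myl1 and Myoz2 are the muscle list genes with the highest ratios that hold the letters, Mylk4 and Fitm1 are the same outside the muscle lists, and Atp1b4 is the gene outside the lists with the highest ratio among those in the table that lacked them. The capitals mark this E-box.
Acta1, chr8:123894776-123895025, minus strand: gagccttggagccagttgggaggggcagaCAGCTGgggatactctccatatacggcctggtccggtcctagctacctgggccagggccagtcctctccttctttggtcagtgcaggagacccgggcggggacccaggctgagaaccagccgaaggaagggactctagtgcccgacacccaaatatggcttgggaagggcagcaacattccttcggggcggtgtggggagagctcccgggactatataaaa
Myl1, chr1:66945057-66945306, minus strand: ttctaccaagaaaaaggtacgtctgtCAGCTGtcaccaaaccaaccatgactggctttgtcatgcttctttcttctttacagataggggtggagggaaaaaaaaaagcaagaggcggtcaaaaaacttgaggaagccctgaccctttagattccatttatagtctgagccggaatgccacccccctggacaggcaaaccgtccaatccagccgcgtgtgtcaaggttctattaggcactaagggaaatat
Myoz2, chr3:123034988-123035237, minus strand: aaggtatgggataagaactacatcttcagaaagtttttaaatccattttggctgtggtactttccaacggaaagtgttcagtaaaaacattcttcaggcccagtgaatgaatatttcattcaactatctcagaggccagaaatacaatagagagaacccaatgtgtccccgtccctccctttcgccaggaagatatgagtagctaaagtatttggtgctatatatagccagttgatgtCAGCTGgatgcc
Mylk4, chr13:32783965-32784214, minus strand: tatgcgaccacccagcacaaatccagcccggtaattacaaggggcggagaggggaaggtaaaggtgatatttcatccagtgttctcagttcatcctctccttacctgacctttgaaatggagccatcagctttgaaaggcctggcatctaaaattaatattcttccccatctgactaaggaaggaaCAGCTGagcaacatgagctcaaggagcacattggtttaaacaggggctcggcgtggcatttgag
Fitm1, chr14:55575424-55575673, plus strand: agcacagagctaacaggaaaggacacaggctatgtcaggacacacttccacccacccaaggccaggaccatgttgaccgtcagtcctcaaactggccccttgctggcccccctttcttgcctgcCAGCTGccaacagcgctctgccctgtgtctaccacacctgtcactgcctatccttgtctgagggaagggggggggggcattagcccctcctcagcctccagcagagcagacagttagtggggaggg
Atp1b4, chrX:38315872-38316121, plus strand: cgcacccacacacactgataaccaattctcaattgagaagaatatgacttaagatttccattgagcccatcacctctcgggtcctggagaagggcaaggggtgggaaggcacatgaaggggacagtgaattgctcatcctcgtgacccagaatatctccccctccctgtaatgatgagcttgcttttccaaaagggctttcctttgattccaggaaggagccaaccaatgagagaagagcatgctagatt
The E-box reads the same on both strands and was searched without any other motif. It was found in 13.0% of all 32851 promoter windows of this length. Of the 70 muscle list genes described below as higher, 49 were matched in the RefSeq table, with 56 windows, and 28 windows (50%) held it. Of the 42 genes outside the muscle lists, 32 were matched, with 41 windows, and 10 windows (24.4%) held it. A match is a description of the letters and not evidence that a factor binds.

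Across all genes that passed the filter, 123 (0.742%) lay higher in all 4 libraries over the threshold than in any of the 7 under it, and 10 (0.0603%) lay lower. With a difference of more than 2-fold between the group means as well, which is the rule for a call in what follows, 112 genes (0.676%) were called higher and 1 (0.00603%), Xist, was called lower. The 9 muscle lists held 140 genes, of which 127 passed the filter and 70 (55.1%) were called higher, against 42 of 16447 genes (0.255%) outside the lists. The median log2 ratio of the 127 muscle genes was 1.84, against -0.01 over all 16574 genes. It was 2.36 within heterozygous and 1.17 within homozygous libraries, and 2.15 and 1.72 within the sets of 6 and of 5 libraries. Without homo-2, the library rich in Rn45s, 135 genes were called higher, 80 of them in the muscle lists, and the genes outside the lists numbered 64 without homo-3. Since Acta1 chose the libraries, nothing is read from the size of these shares for muscle genes, and what was not used by the choice is which muscle genes, which isoforms and which other tissues came along.

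The thin filament list had 14 genes, all tested, with a median log2 ratio of 2.70 and 9 calls. Tnnc2, fast troponin C, was at 51.2, 145, 33.8 and 76.4 CPM in het-2, het-4, homo-2 and homo-3 and at 0.278 to 7.49 CPM (median 1.78) under the threshold, a log2 ratio of 4.75. Tnnt3, fast troponin T, averaged 67.0 ± 45.6 CPM (SD, n = 4) against 3.37 ± 2.58 CPM (SD, n = 7). The cardiac actin gene Actc1 was at 39.5, 56.8, 36.3 and 47.5 CPM and at 0.185 to 13.7 CPM (median 0.569) under the threshold, where homo-1 alone was above 2.24 CPM. The tropomyosin genes Tpm1 and Tpm2, which non-muscle cells also express, overlapped, with 732 to 849 CPM over and 612 to 884 CPM under for Tpm1 and 191 to 382 CPM over and 118 to 192 CPM under for Tpm2. The summed level of the 35 thin filament, thick filament and rule genes was 1693 to 3546 CPM over and 800.5 to 1203 CPM under the threshold. Without the tropomyosin pair it was 668 to 2325 CPM over and 61.5 to 246 CPM under, and the log2 ratio went from 1.18 to 3.35.

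In the thick filament list 11 of 14 tested genes were called, with a median log2 ratio of 3.04. Mylpf, the fast regulatory light chain, was at 71.8, 183, 57.0 and 104 CPM against 2.26 to 13.8 CPM (median 2.72), and Myl1, a fast essential light chain, at 36.1, 103, 24.9 and 52.5 CPM against 0.185 to 5.97 CPM (median 0.884). Both followed Acta1 library by library, with het-4 highest and homo-2 lowest of the 4. Mybpc1, a slow myosin binding protein, averaged 74.1 ± 46.1 CPM (SD, n = 4) against 11.5 ± 4.30 CPM (SD, n = 7). Mybpc2, its fast counterpart, did not separate the libraries, with 3.96 to 11.1 CPM over and 4.63 to 14.6 CPM under the threshold. Myh1, an adult fast chain, had no count in any of the 7 libraries under the threshold and 0.784, 17.9, 0.982 and 2.35 CPM in het-2, het-4, homo-2 and homo-3. Its mean was at least 155-fold higher over the threshold, set against a floor of 3 counts over the 7 libraries together, and at least 38.6-fold without het-4. It did not pass the filter and is not among the 70.

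Of 26 tested genes of the Z disc and its scaffold, 18 were called, with a median log2 ratio of 2.97. Des, the intermediate filament desmin, was at 39.8, 107, 23.9 and 48.0 CPM over and 1.30 to 10.8 CPM (median 3.06) under the threshold. Smpx, a small stretch-responsive muscle protein, was at 9.10, 19.4, 4.47 and 8.58 CPM against 0 to 1.26 CPM (median 0.242) and had the highest ratio of this list (log2 4.96). Myoz2 and Tcap, ligands of alpha-actinin and titin, had log2 ratios of 4.93 and 4.56. Within the set of 6 libraries, which holds homo-1, the ratios of Smpx and Myoz2 were 4.76 and 4.60. Within the set of 5 they were 5.51 and 6.10, so the order of these genes is not fixed. Fbxo32 and Ankrd23 did not separate the groups, at 119 to 167 CPM over and 112 to 185 CPM under for Fbxo32 and 13.2 to 27.3 CPM over and 12.3 to 33.7 CPM under for Ankrd23.

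Excitation-contraction coupling, by which membrane depolarization releases calcium from the sarcoplasmic reticulum, contributed 13 calls among 18 tested genes. The calcium pump Atp2a1 was at 67.9, 177, 34.6 and 69.2 CPM over and 1.90 to 11 CPM (median 6.97) under the threshold. Trdn, triadin of the release complex, was at 5.49, 15.4, 2.94 and 5.65 CPM against 0 to 0.925 CPM (median 0.0948), and Sln, an inhibitor of the pump, at 5.73, 13.2, 3.71 and 5.58 CPM against 0 to 1.6 CPM (median 0.0948). Ryr1, the release channel, overlapped by 1 library, since homo-4 held 7.32 CPM and homo-2 6.11 CPM. The junctophilin Jph1 was nearly level, at 19.5 to 27.1 CPM over and 16.9 to 25.1 CPM under the threshold.

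The remaining muscle lists were mixed. In energy metabolism 6 of 19 genes were called, among them Ckm, muscle creatine kinase, at 34.0, 86.7, 23.1 and 44.5 CPM against 0.463 to 7.32 CPM (median 0.969), and Cox6a2, a muscle subunit of cytochrome oxidase (log2 ratio 4.72). Pfkm and Ak1, enzymes that other tissues use as well, had log2 ratios of 0.15 and 0.04 and overlapped. In the muscle membrane list 2 of 12 tested genes were called, among them Cav3, caveolin of muscle, with a log2 ratio of 4.51, while Dmd, dystrophin, was at 18.4 to 40.6 CPM over and 11.4 to 30.4 CPM under the threshold. At the neuromuscular junction Chrna1, Chrng and Rapsn of 9 genes were called. Chrng, the fetal gamma subunit of the acetylcholine receptor, was at 3.06, 4.07, 0.763 and 3.23 CPM against 0 to 0.602 CPM (median 0.241), whereas Chrne, the adult epsilon subunit, was at 0.327 to 0.954 CPM over and 0.278 to 1.12 CPM under the threshold.

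Some myogenic regulators were low but separated the libraries. Myog, which drives differentiation of myoblasts, was at 6.04, 9.20, 3.16 and 5.94 CPM against 0 to 1.43 CPM (median 0.0861), and Myod1 at 1.65, 4.50, 1.96 and 0.807 CPM against 0.0927 to 0.802 CPM (median 0.284). Myf6, Vgll2 and Tmem8c (Mymk), the last a fusion protein of myoblasts, completed the 5 calls among 12 tested genes. Pax7, a marker of satellite cells, did not follow them, with 4.55, 16.8, 24.5 and 6.60 CPM in het-2, het-4, homo-2 and homo-3 and 2.83 to 17.5 CPM (median 4.45) in the other libraries. Pax3 overlapped as well, with a log2 ratio of 0.19. Mef2c, a regulator of differentiation, also overlapped, at 44.5 to 93.6 CPM over and 24.9 to 49.4 CPM under the threshold. The gap in Myod1 was narrow, from 0.807 CPM in homo-3 to 0.802 CPM in the highest library under the threshold.

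**Figure D2:**
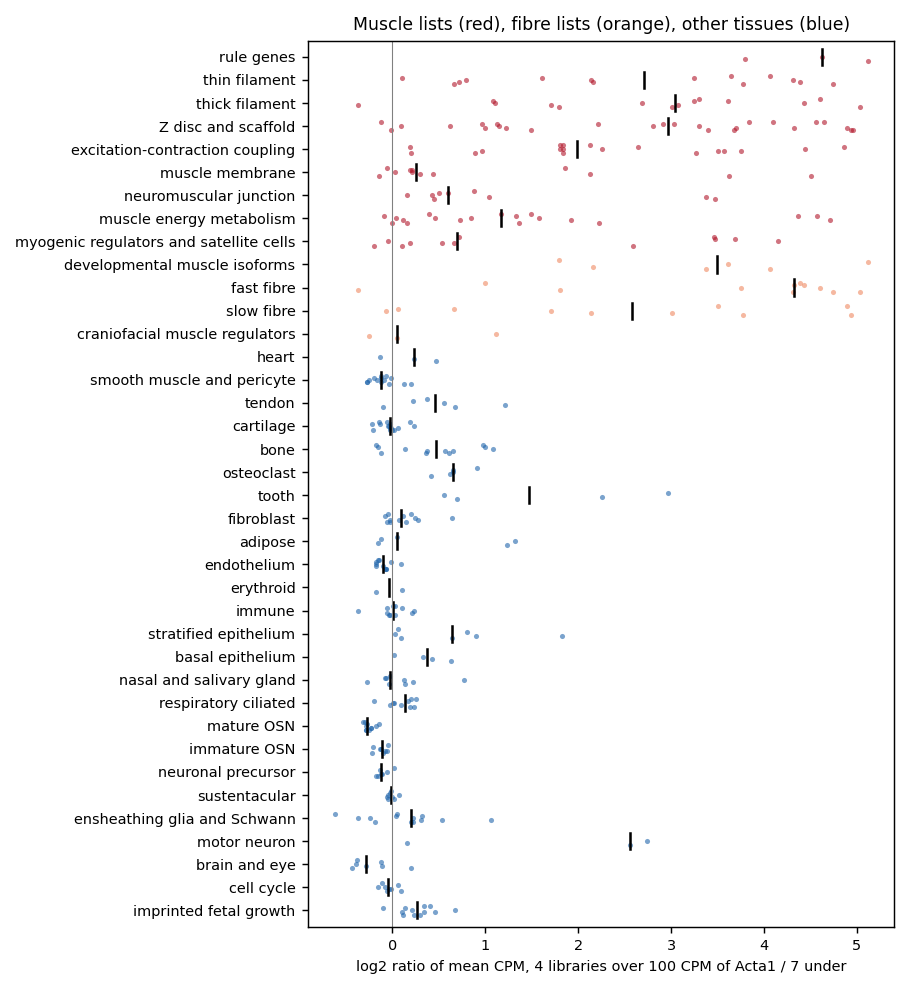
Log2 ratio of mean CPM of the 4 libraries over to the 7 libraries under 100 CPM of Acta1, 1 point for each tested gene and a black bar for each list's median, with muscle lists in red, fibre lists in orange and lists of other tissues in blue. Medians of the developmental and fast isoform lists are 3.49 and 4.33, and most lists of other tissues lie near 0.

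Early and fast isoforms had higher median ratios than slow ones. All 6 developmental isoform genes were called (median log2 ratio 3.49), as were 9 of 11 tested fast genes (4.33) and 7 of 10 tested slow genes (2.58). Under the threshold the slow list already summed to 610 to 835 CPM, against 17.6 to 75.1 CPM for the fast list. The medians are therefore no measure of fibre type. Per kilobase of exon, Myh8 averaged 19.5 ± 17.3 CPM (SD, n = 4) in the libraries over the threshold and Myh3 9.41 ± 3.73 CPM, while Myh1, Myh2, Myh4 and Myh7 averaged 0.865, 0.559, 0.164 and 0.746 CPM. Embryonic Myh3 and perinatal Myh8 made up 39.3% and 54.6% of the 6 chains' summed level per kilobase in het-2, 22.8% and 68.8% in het-4, 48.3% and 45% in homo-2, and 29.7% and 63.7% in homo-3. On the same scale Tnni2, fast troponin I, averaged 30.3 CPM per kilobase and Tnni1, the slow form, 3.46. The lengths are unions of all annotated exons and differ widely, with 11772 bases for Myh8, 6057 for Myh3, 3600 for Tnni1 and 1497 for Tnni2. Levels and shares per kilobase depend on them. In homo-2 Myh3 held 428 of the 1203 counts of Myh3 plus Myh8, so its higher share per kilobase there rests on the lengths.

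The balance of early and late isoforms differed between libraries that held muscle RNA. Myh3 made up 14.6% (95% interval 13.7 to 15.5%, 844 of 5798 counts) of Myh3 plus Myh8 in het-4, 19.3% (95% interval 17.9 to 20.8%, 552 of 2854 counts) in homo-3 and 27.0% (95% interval 25.2 to 28.9%, 644 of 2383 counts) in het-2. It made up 35.6% (95% interval 32.9 to 38.4%, 428 of 1203 counts) in homo-2 and 54.0% (95% interval 49.6 to 58.4%, 282 of 522 counts) in homo-1. The 5 exact (Clopper-Pearson) intervals were disjoint, and the share rose as Acta1 fell. Actc1 made up 11.3%, 15%, 20.3%, 22.0% and 28.6% of Actc1 plus Acta1 in the same order of libraries, a share that holds Acta1 in its denominator and so is tied to the order itself. Tnni1 made up 19.1%, 20.6%, 24.3%, 29.1% and 33.0% of Tnni1 plus Tnni2. The Tnni1 intervals of neighbouring libraries overlapped, so their order is not resolved by the counts. The Myh3 share holds Myh8, which follows Acta1 and is a marker of the split, so its order is not independent of the choice of libraries. WT-2, the only other library with at least 100 counts of Myh3 plus Myh8, did not continue the rise, with 15% (95% interval 11 to 19.9%, 40 of 266 counts) of Myh3, 14.7% of Actc1 and 15.8% of Tnni1. The intervals cover counting error only, and 1 library per value gives no measure of the spread between animals.

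**Figure D3:**
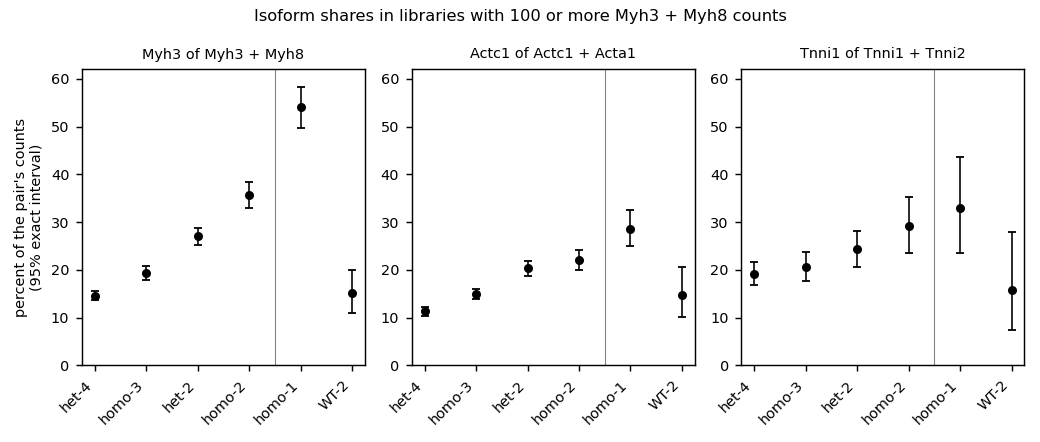
Share of Myh3 in Myh3 plus Myh8, of Actc1 in Actc1 plus Acta1 and of Tnni1 in Tnni1 plus Tnni2 counts, in percent with 95% exact intervals, in the 6 libraries with at least 100 counts of Myh3 plus Myh8, ordered by Acta1 with a line between libraries over and under the threshold. The Myh3 share goes from 14.6% in het-4 to 54.0% in homo-1, and WT-2 is at 15%.

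Among the 4 libraries over the threshold, the order of Acta1 was het-4, homo-3, het-2 and homo-2. This order was kept by 47 of the 70 called muscle genes (67.1%), or 46 of 69 (66.7%) without Acta1 itself, and by 15 of the 42 called genes outside the lists (35.7%), against 508 of all 16574 tested genes (3.07%). Het-4 was the highest of the 4 libraries in 100 of the 112 called genes and homo-2 the lowest in 97, and homo-1 was the highest of the 7 libraries under the threshold in 69. The matching counts over all tested genes were not computed, so these are not read as a trait of the called genes.

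Outside the muscle lists, the 25 genes with the highest ratios included several that muscle is known to use, although the lists did not hold them. Atp1b4, a muscle protein related to sodium pump beta subunits, was at 22.8, 55.2, 11 and 21.3 CPM in het-2, het-4, homo-2 and homo-3 and at 0 to 4.88 CPM (median 0.136) in the rest, a log2 ratio of 4.97. Hfe2, hemojuvelin, known from liver and skeletal muscle as a regulator of iron balance, was at 7.37, 15.7, 2.29 and 7.92 CPM against 0 to 1.43 CPM (median 0.0948). Mylk4, a myosin light chain kinase family member, was at 10.9, 19.5, 7.85 and 8.29 CPM against 0.190 to 2.36 CPM (median 0.344). In each of these genes homo-1 was the highest library under the threshold, as it was for Acta1. Without homo-1 the log2 ratios were 7.03 (Atp1b4), 5.91 (Hfe2) and 4.77 (Mylk4), and that of Atp1b4 was 4.39 without het-4.

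Several more of the 25 belong to the contractile apparatus or its turnover. Mypn, myopalladin of the Z disc, was at 3.06, 12.3, 2.73 and 4.91 CPM against 0.0807 to 0.757 CPM (median 0.258), and Myo18b, a myosin needed in sarcomere assembly, at 3.84, 14.3, 2.29 and 5.28 CPM against 0.190 to 0.589 CPM (median 0.476). Alpk3, a muscle alpha kinase, and Trim55, a sarcomere-bound ubiquitin ligase, had log2 ratios of 3.55 and 3.22. Without het-4 the ratios of Mypn, Myo18b and Trim55 were 3.63, 3.23 and 2.63. Itgb1bp2, melusin, averaged 16.8 ± 7.06 CPM (SD, n = 4) against 2.29 ± 1.37 CPM (SD, n = 7), and Asb2, a ubiquitin ligase adaptor, had a log2 ratio of 2.22.

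Membrane and calcium handling was represented by Pln, phospholamban, at 2.51, 3.42, 0.872 and 1.61 CPM against 0 to 0.569 CPM (median 0.241). Trim72, a membrane repair protein, was at 6.12, 10.4, 3.60 and 6.24 CPM against 0.561 to 2.79 CPM (median 1.09), and Art1, an ADP-ribosyltransferase of the muscle surface, at 5.49, 7.81, 3.16 and 5.72 CPM against 0.602 to 1.51 CPM (median 0.888). Tmem182 and the connexin gene Gja3 had log2 ratios of 2.93 and 3.24. Apobec2, a muscle member of the APOBEC family, was at 11.8, 26.3, 7.63 and 12.4 CPM against 0.758 to 2.58 CPM (median 1.90). Fitm1, which acts in lipid droplet formation, and Prr32, Tceal7 and Lrtm1 had log2 ratios of 3.62, 4.75, 4.52 and 4.37. Those of Prr32 and Tceal7 were 5.56 and 5.55 without homo-1 and 4.08 and 3.85 without het-4, and of the 9 counts of Lrtm1 under the threshold all but 1 were in homo-1.

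The order of Acta1 over the threshold was not kept by Atp1b4, Mylk4, Trim55, Itgb1bp2, Asb2, Pln, Gja3 and Fitm1. Rtl1, Atcayos and Rpph1 did not keep it either. Rtl1, an imprinted gene derived from a retrotransposon, was at 7.06, 5.14, 2.73 and 6.90 CPM in het-2, het-4, homo-2 and homo-3 and at 0.278 to 1.98 CPM (median 0.882) in the others. Atcayos, annotated antisense to Atcay, was at 1.33, 0.963, 0.436 and 1.76 CPM against 0 to 0.272 CPM (median 0.168), and the strand setting of the counting is not given in the sources used here, so reads of the sense gene may be in it. Rpph1, the RNA of ribonuclease P, was at 3.37, 2.57, 145 and 5.21 CPM against 0.284 to 2.26 CPM (median 0.775), so its log2 ratio of 5.39 was 2.0 without homo-2, the library with 25.8% of its counts from Rn45s.

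**Figure D4:**
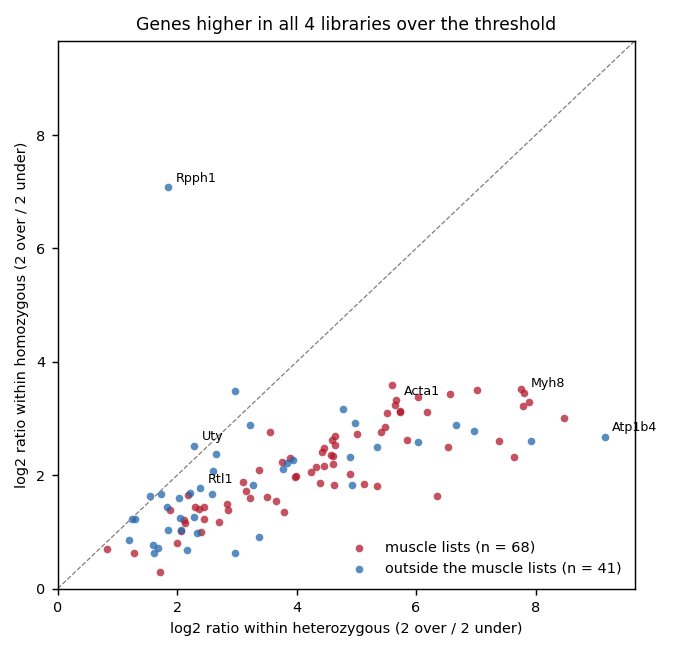
Log2 ratio of the libraries over to those under the threshold within heterozygous (x axis, 2 against 2) and within homozygous libraries (y axis, 2 against 2) for 109 of the 112 called genes, 68 from the muscle lists in red and 41 outside them in blue, with the dashed line at equal ratios; 3 genes without a finite ratio are not drawn. All but 4 of the 109 lie below the line, and Rpph1 lies far above it.

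The ratios were smaller within homozygous libraries than within heterozygous ones for 105 of 109 called genes. Acta1 had a log2 ratio of 5.67 within heterozygous and 3.32 within homozygous libraries, Mylpf 5.64 and 3.24, and Apobec2 3.84 and 2.21. Genes with few counts in het-1 and het-3 have imprecise ratios within heterozygous libraries. Homo-1, at 34.2 CPM of Acta1, is 1 of only 2 libraries on the lower side within homozygous, and het-4, the highest of all, is on the upper side within heterozygous.

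The libraries over the threshold also shared low Xist, the RNA that silences 1 X chromosome in females. Xist was at 1.10, 1.07, 0.982 and 0.880 CPM in het-2, het-4, homo-2 and homo-3, at 1.70 and 1.2 CPM in het-1 and homo-4, and at 1647, 1327, 4297, 1684 and 1389 CPM in WT-1 to WT-3, het-3 and homo-1. The Y-linked genes Uty, Eif2s3y and Ddx3y were among the 25. Eif2s3y was at 117, 102, 83.2 and 71.2 CPM over the threshold, at 65.7 and 48.4 CPM in het-1 and homo-4 and at no more than 0.284 CPM in the remaining 5 libraries. Ddx3y was at 110.4, 61.4, 71.1 and 64.2 CPM over the threshold and at 58.6 and 43.5 CPM in het-1 and homo-4. The log2 ratios of Uty, Eif2s3y and Ddx3y were 3.19, 2.51 and 2.39, and without het-1 they were 4.35, 3.52 and 3.4. Within the 6 libraries with low Xist, 4 over and 2 under the threshold, they were 1.38, 0.71 and 0.59. In the same 6 libraries the median log2 ratio of the muscle genes was 2.09, and Acta1 was at 6.05 and 5.77 CPM in the 2 under the threshold. All 3 wild type libraries had high Xist, so Xist and genotype are entangled with the choice of libraries, and the part of sex in the other differences was not tested.

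The 10 genes that lay lower in all 4 libraries moved little, apart from Xist. Mapt, the axonal protein tau, was at 73.7, 78.2, 71.2 and 78.6 CPM against 79.5 to 99.2 CPM (median 88.0), and Cntn2, an axonal adhesion protein, at 8.71, 9.53, 7.96 and 9.17 CPM against 10.2 to 20.3 CPM (median 10.9). Gpt2, Zmynd8, Mcoln3, Pigb, Atp8a2 and Anks1b had log2 ratios between -0.37 and -0.20, and the olfactory receptor gene Olfr951, at 0.535 to 0.863 CPM over and 0.952 to 2.08 CPM under the threshold, had -0.88. None of these 9 reached the 2-fold limit.

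The lists of 25 other tissues and cell types held no gene that separated the 2 groups in either direction. Heart shares many sarcomere genes with skeletal muscle, so its defining genes were read first. Myl7 was at 0.107 to 0.863 CPM over and 0.0802 to 0.688 CPM under the threshold, Nppa at 0 to 0.471 CPM over and 0.160 to 0.612 CPM under, and Nkx2-5 and Tbx5 had no count in any library, which left all 4 genes at or near 0. Tnni3, the cardiac troponin I, was at 6.33 to 16.8 CPM over and 6.25 to 21.1 CPM under, higher in the set of 5 libraries whatever their Acta1. Smooth muscle and pericyte genes had a median log2 ratio of -0.12 and summed levels of 1422 to 1870.4 CPM over and 1615 to 1977 CPM under the threshold. Neither the heart list nor the smooth muscle list held a gene that separated the libraries.

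Tissues that adjoin muscle were next. Tendon had a median log2 ratio of 0.46 over 6 tested genes, and Tnmd, tenomodulin, was at 1.33 to 2.27 CPM over and 0.476 to 1.77 CPM under the threshold. Bone (0.47 over 12 genes) and osteoclasts (0.65 over 5) leaned higher but overlapped. The bone median was 0.75 within heterozygous, 0.39 within homozygous and 0.95 within the libraries with low Xist. For osteoclasts these medians were 1.29, 0.46 and 1.71. Ibsp, bone sialoprotein, was at 154, 326, 321 and 166 CPM in het-2, het-4, homo-2 and homo-3 and at 52.8 to 191 CPM (median 65.8) in the others, and Acp5, the osteoclast acid phosphatase, at 54.2, 139, 19.5 and 82.2 CPM against 14.2 to 114 CPM (median 26.2), with WT-2 at 114 CPM. Cartilage (-0.03), fibroblasts (0.09), adipose (0.05), endothelium (-0.10), erythroid (-0.04) and immune (0.00) lists had medians near that of all genes. Adipoq, which defines fat cells, was at no more than 0.379 CPM in any library.

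Het-4, the library with most Acta1, was also highest in some of these lists. Amelx, the enamel protein amelogenin, was at 34.0 CPM there, 4.49 CPM in WT-2 and no more than 1.55 CPM in the other 9. The summed basal epithelium list was 256 CPM in het-4, 201 CPM in homo-2, 96.9 CPM in het-2, 94.8 CPM in homo-3 and 70.3 to 214 CPM under the threshold. The part of these tissues in the genes called higher was not tested.

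The largest medians of the 25 lists were those of motor neurons (log2 2.56, 3 of 3 tested genes positive), tooth (1.47, 4 of 4), osteoclasts and stratified epithelium (0.64, 7 of 7), with no gene that separated the libraries. The tooth median was -0.47 within homozygous libraries and -0.95 within the set of 5, where the stratified epithelium median was -0.04. The summed tooth level was 165 CPM in het-4, 17.0, 24.9 and 49.2 CPM in het-2, homo-2 and homo-3 and up to 84.7 CPM under the threshold. The motor neuron median was 0.23 within homozygous libraries, 0.38 within the set of 5 and 1.04 within the libraries with low Xist, and the log2 ratio of the list's summed levels was 0.20. Most of that sum was Prph, the neuronal intermediate filament peripherin, at 72.8 to 93.3 CPM over and 48.6 to 113 CPM under the threshold. Slc5a7, the choline transporter, was at 2.35, 2.46, 2.18 and 0.0734 CPM over and 0 to 0.569 CPM (median 0.241) under the threshold, and Slc18a3, the vesicular acetylcholine transporter, at 1.10, 2.46, 1.31 and 0 CPM against 0 to 1.12 CPM (median 0.0802). Homo-3, second in Acta1, was at or near 0 for both. Chat, which defines cholinergic neurons, was at no more than 0.214 CPM in all libraries. Of the craniofacial muscle regulators, Tbx1 was at 8.99 to 16.9 CPM over and 9.45 to 28.7 CPM under the threshold and Tcf21 had no count.

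The lists of the epithelium's own cells held no gene that separated the libraries. All 11 mature olfactory neuron genes and all 8 immature ones had ratios below 0 and overlapped, with medians of -0.27 and -0.11 on the log2 scale. Within the sets of 6 and of 5 libraries the mature neuron median was -0.48 and 0.05, so the direction was not shared by the set of 5. Sustentacular genes had a median of -0.02, respiratory ciliated cells 0.13 and ensheathing glia with Schwann cells 0.20. The imprinted genes of fetal growth had a median of 0.26, and 11 of 12 were positive.

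**Figure D5:**
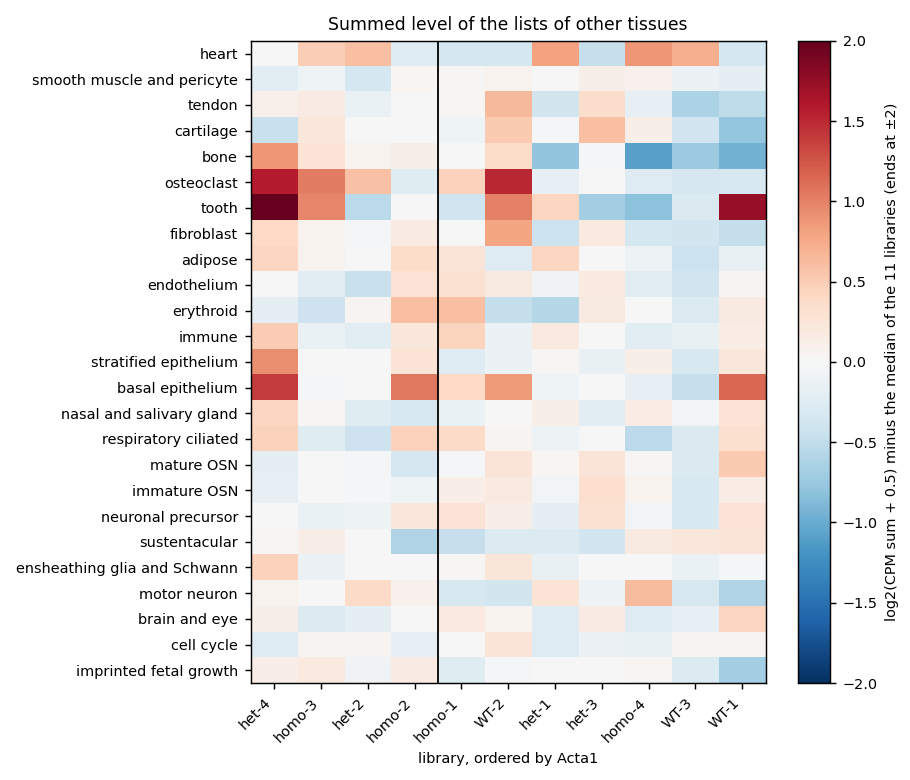
Summed CPM of each of the 25 lists of other tissues, as log2(sum + 0.5) minus the list's median over the 11 libraries, in libraries ordered by Acta1 from left to right with a line at the threshold (colours end at ±2). Het-4 stands out in tooth, osteoclast and basal epithelium, WT-2 in osteoclast and WT-1 in tooth, and no list separates the 4 libraries on the left from the rest.

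Within the 7 libraries under the threshold, the summed level of each of 38 lists was compared with Acta1, which was itself left out of every sum, on the log2(CPM + 0.5) scale. The fast fibre list had the highest Pearson coefficient of the 38, with r = 0.95 (exact permutation p = 0.00536, adjusted p = 0.0679) and Spearman's rho = 0.89 (exact permutation p = 0.0123, adjusted p = 0.156), and without homo-1 and WT-1, the 2 libraries farthest from the median of Acta1, r was 0.66. The developmental isoforms had r = 0.89 (exact permutation p = 0.00357, adjusted p = 0.0679), rho = 0.68 (exact permutation p = 0.110, adjusted p = 0.520) and 0.96 without those 2. Excitation-contraction coupling had r = 0.93 (exact permutation p = 0.0133, adjusted p = 0.126) and rho = 0.61 (exact permutation p = 0.167, adjusted p = 0.576), with 0.50 without those 2. Among other tissues, the osteoclast list had r = 0.61 (exact permutation p = 0.216, adjusted p = 0.551) and the same rho as the fast fibre list, 0.89 (exact permutation p = 0.0123, adjusted p = 0.156), with r = 0.99 without those 2. The thick filament list had r = 0.87 (exact permutation p = 0.0302, adjusted p = 0.191) and rho = 0.54 (exact permutation p = 0.236, adjusted p = 0.633), and the relation rested on homo-1 and WT-1, since r was -0.31 without them. The sustentacular list had r = -0.73 (exact permutation p = 0.0276, adjusted p = 0.191), rho = -0.89 (exact permutation p = 0.0123, adjusted p = 0.156) and -0.45 without those 2. No list passed 0.05 after Benjamini-Hochberg adjustment over the 38, by either measure. Before adjustment 6 passed by Pearson's r, among them Myh8 plus Ttn, which the rule's markers include. The sets of libraries on the first principal component hold 4 and 3 of these 7, too few for a value within each.

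Genotype was not used by the rule, and no wild type library was over the threshold, against 2 of 4 heterozygous and 2 of 4 homozygous libraries. The log2 CPM of the summed sarcomere genes averaged 9.91 ± 0.25 (SD, n = 3) for wild type. Heterozygous libraries averaged 10.63 ± 0.88 (SD, n = 4) and homozygous ones 10.55 ± 0.47 (SD, n = 4). The differences of 0.72 (heterozygous minus wild type, exact two-sided permutation p = 0.286, adjusted p = 0.429), 0.63 (homozygous minus wild type, exact permutation p = 0.143, adjusted p = 0.429) and -0.08 (homozygous minus heterozygous, exact permutation p = 0.943, adjusted p = 0.943) did not pass the test. Without Tpm1 and Tpm2, left out after seeing the data, the differences were 2.07 (heterozygous minus wild type, exact permutation p = 0.286, adjusted p = 0.429), 2.12 (homozygous minus wild type, exact permutation p = 0.0857, adjusted p = 0.257) and 0.042 (homozygous minus heterozygous, exact permutation p = 0.971, adjusted p = 0.971). The smallest p these designs allow is 0.0286.

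In the fit across all genes, edgeR's quasi-likelihood test called no gene between any 2 genotypes at an adjusted p of 0.05 (0% of 16574 in each of 3 contrasts), and no muscle list gene. It did not call the deleted Taar genes either, whose sum was 6.98 to 9.61 CPM in wild type and 0.0841 to 0.258 CPM in homozygous libraries. The lack of a call for a muscle gene is therefore not evidence that its level was the same. DESeq2 called 8 genes between homozygous and wild type, 3 between heterozygous and wild type and 2 between homozygous and heterozygous, none of them in the muscle lists. The 8 were Taar6, Taar7e, Taar7f, Itgbl1, Kdm5d, Eif2s3y, Ddx3y and Fosb. The 3 were Eif2s3y, Ddx3y and Kdm5d, and the 2 were Taar6 and Taar7f. The Taar genes lie in the deletion, and Eif2s3y and Ddx3y are Y-linked, where all 3 wild type libraries had high Xist. At an unadjusted p under 0.05, edgeR placed 67 of 127 muscle genes higher in heterozygous than in wild type, against 290 of all genes (1.75%), and 28 of 127 higher in homozygous than in wild type, against 300 of all genes (1.81%). These counts rested on single libraries. The first was 12 without het-4, 16 without WT-1 and 32 without WT-3, and the second was 7, 16 and 15 without WT-1, WT-2 and WT-3, 16 without het-2, 13 without homo-2, 9 without homo-3 and 45 without het-1 or het-3. Between homozygous and heterozygous it placed 0 of 127 higher, against 53 of all genes (0.32%). The median log2 difference of the 127 muscle genes was 1.6 (heterozygous minus wild type), 1.25 (homozygous minus wild type) and -0.43 (homozygous minus heterozygous). Without het-4 the first was 0.85 and the last turned to 0.21, and without homo-3 the second was 0.85. Without the 4 libraries over the threshold, 94 muscle genes passed the filter and these medians were -0.02, 0.36 and 0.26. With the sarcomere sum as a covariate they were 0.27, 0.32 and 0.01. Both steps condition on muscle RNA itself, by the rule or by a sum that holds its genes, so smaller medians follow from their construction. The contrasts of heterozygous and of homozygous with wild type share the 3 wild type libraries.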

How the data were processed

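PolyA-selected RNA of the MOE was measured in 11 libraries. The authors deposited raw counts per gene, 1 column for each library, and all columns were matched to a sample by name (0 columns without one). The submitters' processing notes name Trimmomatic (0.36), HISAT2 (2.1.0), featureCounts of Subread (1.6.2) and DESeq2 (1.20.0) with the mm10 build, and the strand setting of the counting is not given in the sources used here. Totals of 9239866 to 14632525 counts set the precision, and intervals and floors cover counting error only.

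CPM were computed with TMM factors in edgeR (4.0.16, R 4.3.3). Of 24421 genes, 16574 passed edgeR's filterByExpr by genotype. Libraries over and under 100 CPM of Acta1 were described without a test. Genotypes were fitted with edgeR's quasi-likelihood test on all 11 libraries with Benjamini-Hochberg adjustment, and with DESeq2 (1.42.0) as an alternative. List sums were tested by exact two-sided permutation (scipy 1.17.1), with a pseudocount of 0.5 CPM for correlations. The members and the gene lists were chosen with earlier results of these data known. Named genes were those of the muscle lists, the defining markers of other lists and, outside the muscle lists, up to 25 highest and 15 lowest by ratio among genes with at least 1 CPM in the higher group, no overlap and the same sign within heterozygous and homozygous libraries. Genes shown from other lists, and isoform pairs beyond these, were chosen after their values were seen. Exon lengths came from the union of exons on GRCm38. On simulated data, edgeR recovered 56.1% of genes changed by 1 and 98% of genes changed by 2 on the log2 scale between homozygous and wild type (16364 genes). The rule for a call recovered 37% and 97% between 4 and 7 libraries (16574 genes). The simulation gave every gene the same dispersion and held no outlying libraries or sets, unlike these data. In the fit of these data, Acta1 differed by 4.10 on the log2 scale (homozygous minus wild type), with a standard error of 1.67. The shares recovered therefore do not give the power for muscle genes here. Alternatives covered scaling, filter, threshold, fold, splitting gene, subsets of libraries, replicate block, covariate and leaving out each library. Some genes of the lists are not reported here.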

Additional observations from a re-analysis of the deposited data

Results flagged for a closer look

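In 14 of 168 sets of 4 or 7 libraries tested with Dixon's criterion, 1 library lay far from the others, where chance gives about 1 in 20. Homo-1 was the highest library under the threshold in Acta1 (34.2 CPM, next 13.0), in the summed thick filament list (112 CPM, next 65.0) and in the developmental isoforms (69.99 CPM, next 32.8). Het-4 was the highest library over the threshold in the Z disc list (738 CPM, next 436). Among heterozygous libraries it was the highest in the muscle membrane list (212 CPM, next 156), tooth (165 CPM, next 33.8), stratified epithelium (57.8 CPM, next 30.9) and basal epithelium (256 CPM, next 96.9). WT-2 was the highest library under the threshold in the muscle membrane list (193 CPM, next 156), osteoclasts (716 CPM, next 346), fibroblasts (11840 CPM, next 7907) and ensheathing glia with Schwann cells (506 CPM, next 431). Homo-2 was the lowest library over the threshold in the neuromuscular junction list (29.0 CPM, next 42.0) and the lowest homozygous library in mature olfactory neuron genes (1463 CPM, next 1812). The cause of these values was not tested.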

How the results depend on the processing

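Splitting the libraries at 50 CPM of Acta1, or taking the 4 highest by Ttn or Myh8, gave the same 4 libraries and the same counts. Scaling to the plain library total gave 88 genes higher, 59 of them in the muscle lists. Counts moved most where fewer libraries were compared. Genes called lower (1 in the main comparison) were 3 without the filter, 9 at 200 CPM of Acta1, 14 in heterozygous and homozygous libraries only, 107 and 35 within the sets of 6 and of 5 libraries, 2 at a fold of 1.5, and 1 to 7 on leaving out each library. Genes outside the muscle lists called higher (42) were 64 without the filter, 118 and 107 within the sets, and 41 to 64 on leaving out each library, 64 without homo-3. All genes called higher (112) were 200 and 183 within the sets. Among the 6 libraries with low Xist, an alternative chosen after seeing the data, there were 520.0 higher of 16574 tested, 445 of them outside the muscle lists, and 185 lower. With 4 libraries against 2, values fail to overlap by chance more often than with 4 against 7. These counts are therefore not read as genes that accompany muscle. The log2 sarcomere ratio of 1.18 was 3.35 without Tpm1 and Tpm2, also chosen after seeing the data. Rpph1 turned to -2.14 at 200 CPM, where homo-2 falls on the lower side. DESeq2 called 8 (homozygous minus wild type), 3 (heterozygous minus wild type) and 2 (homozygous minus heterozygous) genes where edgeR called 0. These genes are named above, and why the methods differed was not tested. The sarcomere difference between homozygous and heterozygous (-0.08) lay between -0.33 and 0.31 on leaving out each library, 0.31 without het-4, and was 0.042 without the tropomyosins. Under the threshold, Pearson's r on leaving out each library lay between -0.10 and 0.79 (thin filament), -0.010 and 0.77 (Z disc), -0.39 and 0.54 (neuromuscular junction), -0.46 and 0.15 (energy metabolism) and -0.073 and 0.61 (myogenic regulators), with changes of sign without WT-1 or homo-1.

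Replicate numbers are shared between genotypes, but the labels do not say that a number marks a litter or batch, and the deviations of 10 same-numbered pairs correlated at -0.58 to 0.41, with 3 over 0.1. With the replicate block edgeR called 0 genes in each of the 3 contrasts, as without it. At an unadjusted p under 0.05 it placed 11 muscle genes higher in heterozygous (67 without the block) and 20 in homozygous (28) than in wild type. Genes near 1 CPM rest on about 10 counts a library, so differences there are limited by depth.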
